A study of Mus musculus with 3 samples.

Results

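The genes described here encode 9 lymphocyte surface receptors, 7 of the killer cell lectin-like (Klr) family and 2 of the leukocyte immunoglobulin-like (Lilr) family, out of 19938 genes with a value. They were taken by name: Klrd1, Klrc1, Klrc2, Klrk1, Klrg1, Klrb1c, Klrb1f, Lilrb4a (older name Lilrb4, the receptor gp49B) and Lilr4b (older name Gp49a). Each was measured by 1 probe set, and no probe set annotated to several genes included any of them.

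Expression was measured on 3 single-colour arrays, 1 for each of Th0, Th22 and Th17 cells. All cells began as naive splenic CD4 T cells (CD4+CD25-CD62LhighCD44low) from OT-II mice (strain B6.Cg-Tg(TcraTcrb)425Cbn/J), in which T cells carry a transgenic receptor for an ovalbumin peptide. In every culture the peptide was presented by spleen cells of Il23a-/- mice from which T cells had been removed. Th0 cells received no cytokine, Th22 cells received IL-6, and Th17 cells received IL-6 together with TGFβ. Cells were purified on magnetic beads at 60 hours. The labels state neither the age of the mice nor how many contributed to a culture. With 1 array per condition no difference below could be checked against replicates, no test was run, and precision is limited by the 3 arrays.

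Receptors of the Klr family are lectin-like proteins best known from natural killer (NK) cells, where inhibitory and activating members read class I-like molecules on other cells. CD94, the product of Klrd1, reaches the surface as a dimer with an NKG2 chain. With NKG2A (Klrc1) the dimer is inhibitory, because NKG2A carries immunoreceptor tyrosine-based inhibition motifs that recruit phosphatases, and with NKG2C (Klrc2) it is activating and signals through the adaptor encoded by Tyrobp. Activated T cells can also express several of these receptors. The Lilr pair is an inhibitory receptor with such motifs (Lilrb4a) and a close relative without them (Lilr4b), known from mast cells, myeloid cells and activated lymphocytes. The set is thus mixed: Klrc1, Klrg1 and Lilrb4a encode inhibitory receptors, while Klrc2, Klrk1 and Klrb1c encode activating ones.

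The deposited values are differences from the median of the same probe over the 3 arrays, on a scale taken as log2, so that 0 marks the middle array of each gene. The scale keeps differences between arrays and holds no expression level. Levels of different genes can therefore not be set against each other, and whether a labelled cell type's defining genes were present cannot be read. A gene was counted as apart where arrays differed by at least 2-fold, which is 1 log2. The one available repeat measurement was the difference between separate probe sets of the same gene in 999 genes, none of them described here. Between Th22 and Th0 its SD was 0.14 log2, and 95% of these genes lay within 0.30. Between Th17 and Th22 the SD was 0.18 log2 and the 95% range 0.36, and between Th17 and Th0 they were 0.19 and 0.39. The spread between cultures is not part of it. The 999 genes include some where neither probe set differed between the arrays. Without those the SDs were larger, at 0.16, 0.21 and 0.22 log2 in the same order of comparisons.

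In Th17 against Th22, 3 of the 9 genes were at least 2-fold apart, beside 2.61% of all genes and 4.18% of those not equal on all 3 arrays. Klrd1 was on the higher side, with 1.1% of all genes, and Lilrb4a and Lilr4b were on the lower, with 1.5%. In Th22 against Th0 the single gene apart was Klrc1, on the higher side, beside 0.808% of all genes either way (0.547% higher) and 1.3% of those not equal on all arrays. In Th17 against Th0, 3 of 9 were apart, beside 3.03% of all genes and 4.86% of those not equal on all arrays. Klrd1 was again on the higher side (1.47% of all genes) and the Lilr pair on the lower (1.56%). The median over the 9 genes was 0 in Th17 against Th22 and in Th17 against Th0, and 0.16 log2 in Th22 against Th0, while the median of all genes was 0 in each. The 3 comparisons share arrays, so that they are not independent of each other. The 9 genes were chosen with earlier results of these data known, so larger shares than over all genes are no evidence about the set.

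**Figure D1:**
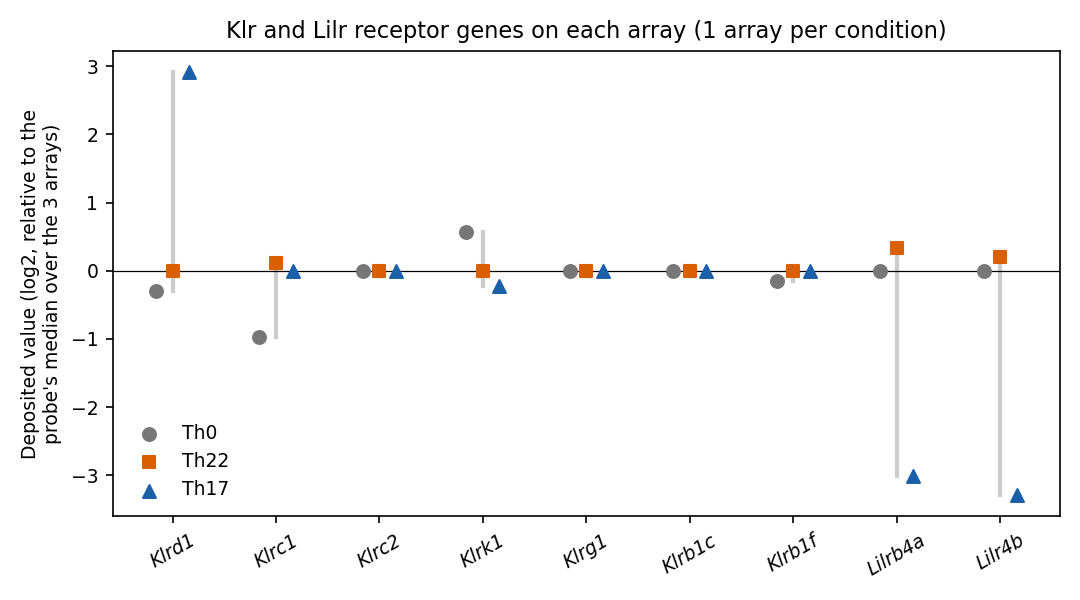
Deposited value of each of the 9 genes on the Th0 (circle), Th22 (square) and Th17 (triangle) array, in log2 relative to the gene's own middle array; grey bars span the lowest to the highest array. Klrd1 stands high on the Th17 array at 2.92, Lilrb4a and Lilr4b stand low on it at -3.01 and -3.29, and Klrc1 is low on the Th0 array at -0.97.

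Klrd1, the common CD94 chain, had a value of -0.30 log2 in Th0, 0 in Th22 and 2.92 in Th17. The Th17 array stood alone, and Th0 and Th22 lay close together. Klrd1 was 7.55-fold higher in Th17 than in Th22 and 9.32-fold higher than in Th0. These were the 20th and 27th highest differences among the 19938 genes. Th22 exceeded Th0 by 0.30 log2, at the edge of the range that held 95% of paired probe sets. After quantile normalization, which forces the same distribution on each array, the folds were 4.4 and 5.56. It was run on the centred values, whose SD over probe sets was 0.17 log2 in Th0, 0.12 in Th22 and 0.28 in Th17. By construction it thus tends to narrow Th17 values and to widen Th22 values. Folds given after it, here and below, are no separate measurement.

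The chains that can pair with CD94 did not share this pattern. Klrc1, which encodes the inhibitory NKG2A chain, was at -0.97 log2 in Th0, 0.11 in Th22 and 0 in Th17. Both cytokine-treated cultures were above Th0, Th22 by 2.11-fold, the 92nd highest difference among all genes, and Th17 by 1.96-fold, just inside the threshold. Th22 and Th17 differed by 0.11 log2, which is less than the SD between probe sets. Klrc2, which encodes the activating NKG2C chain, had exactly the same value on all 3 arrays. Between Th17 and Th22 the difference in Klrd1 exceeded that in Klrc1 by 3.03 log2. Between Th22 and Th0 it was 0.77 log2 smaller than that in Klrc1.

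Klrk1 encodes NKG2D, an activating receptor for stress-induced ligands that signals through the adaptor encoded by Hcst. Its value was 0.57 log2 in Th0, 0 in Th22 and -0.23 in Th17, an order opposite to that of Klrd1. Th0 was 1.48-fold above Th22 and 1.74-fold above Th17, both inside the 2-fold threshold and outside the 95% range between probe sets. The step from Th22 to Th17 was 0.23 log2, inside that range. A spread of this size or larger was seen in 5.24% of all genes.

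The remaining Klr genes showed little or no difference. Klrg1, which encodes an inhibitory receptor for cadherins found on differentiated effector cells, and Klrb1c, which encodes the NK cell antigen NK1.1, were each exactly equal on the 3 arrays. Klrb1f, an NKR-P1 family gene, was at -0.16 log2 in Th0 and 0 in both Th22 and Th17, a difference inside the 95% range between probe sets. Exact equality was common in the table, at 37.7% of all genes, and it does not show whether a gene was detected. Where exactly 2 arrays were equal, the third was higher in 48.4% and lower in 51.6% of 7007 probe sets, so the shared value was not generally the lowest one.

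In both Lilr genes the Th17 array was the low one. Lilrb4a, which encodes the inhibitory receptor gp49B, was at 0 in Th0, 0.33 log2 in Th22 and -3.01 in Th17. Lilr4b, which encodes the related receptor without inhibition motifs, was at 0 in Th0, 0.20 log2 in Th22 and -3.29 in Th17. For both genes the Th17 array lay far below the other arrays, which were near each other. Lilrb4a was 10.2-fold lower in Th17 than in Th22 and 8.07-fold lower than in Th0. For Lilr4b the folds were 11.2 and 9.78. They held the 15th and 13th lowest places of all genes in Th17 against Th22, and the 37th and 25th lowest in Th17 against Th0.

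Quantile normalization left both Lilr genes lower in Th17, by 4.63-fold and 4.83-fold against Th22 and by 3.54-fold and 4.14-fold against Th0. The difference of Lilrb4a from that of Lilr4b was 0.14 log2 for Th17 against Th22 and 0.13 for Th22 against Th0, each below the SD between probe sets of the same gene, and 0.28 for Th17 against Th0. These genes are close relatives, and how far a probe set of one detects the other was not tested. Th22 stood above Th0 by 0.33 log2 in Lilrb4a, just outside the 95% range between probe sets, and by 0.20 in Lilr4b, inside it. In a bulk measurement fewer cells that carry a transcript and less transcript per cell cannot be told apart.

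**Figure D2:**
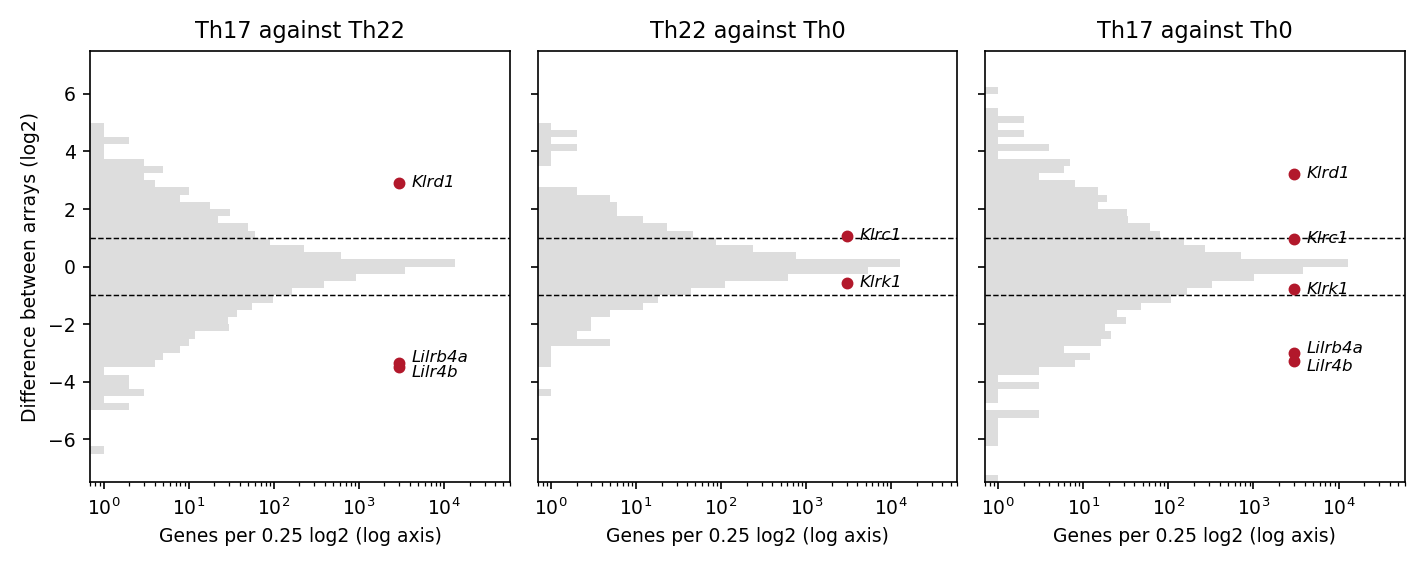
Difference between arrays in log2 (vertical) for all 19938 genes as grey histograms (genes per 0.25 log2, log axis), in the 3 comparisons; dashed lines mark 2-fold. Red points mark the described genes that differ by at least 0.5 log2, and their horizontal position has no meaning: Klrd1 lies at 2.92 and 3.22 in the comparisons of Th17, and Lilrb4a and Lilr4b lie between -3.01 and -3.49.

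Proximal promoter sequence was available from RefSeq (GRCm38.p6) for 6 of the 9 genes, with none for Klrd1, Klrg1 and Lilrb4a. The 250 bases before the start site are shown for Klrc1 and Klrc2, which pair with the same partner chain and differ in their values, for the neighbouring Klrk1, and for Lilr4b, which was apart in both comparisons of Th17. Capitals mark matches to any of 8 short motifs searched on both strands.
Klrc1, chr6:129678974-129679223, minus strand: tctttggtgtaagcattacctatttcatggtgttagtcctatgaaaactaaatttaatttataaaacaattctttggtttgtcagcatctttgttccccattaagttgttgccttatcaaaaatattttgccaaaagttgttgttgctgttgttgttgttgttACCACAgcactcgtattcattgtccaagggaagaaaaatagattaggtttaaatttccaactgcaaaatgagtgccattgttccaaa
Klrc2, chr6:129660597-129660846, minus strand: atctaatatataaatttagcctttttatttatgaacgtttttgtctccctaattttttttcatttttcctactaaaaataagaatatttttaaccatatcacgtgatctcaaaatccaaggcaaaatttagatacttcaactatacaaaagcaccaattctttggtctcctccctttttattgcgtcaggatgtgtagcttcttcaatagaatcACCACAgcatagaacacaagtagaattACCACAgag
Klrk1, chr6:129623865-129624114, minus strand: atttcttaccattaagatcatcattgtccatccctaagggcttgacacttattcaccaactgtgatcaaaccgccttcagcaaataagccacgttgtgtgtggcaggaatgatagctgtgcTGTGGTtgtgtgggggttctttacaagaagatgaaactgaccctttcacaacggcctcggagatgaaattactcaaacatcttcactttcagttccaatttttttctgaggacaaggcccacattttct
Lilr4b, chr10:51480362-51480611, plus strand: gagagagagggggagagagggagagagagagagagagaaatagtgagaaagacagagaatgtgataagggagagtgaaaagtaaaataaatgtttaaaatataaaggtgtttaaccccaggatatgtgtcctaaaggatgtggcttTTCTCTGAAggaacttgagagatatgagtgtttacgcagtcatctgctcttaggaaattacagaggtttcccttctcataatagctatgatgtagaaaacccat

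In these sequences the RUNX motif TGTGGT, read on either strand, was present once in Klrc1, at -87 to -82 from the start site, and once in Klrk1, at -129 to -124. Klrc2 held it at -36 to -31 and again at -9 to -4. With Klrb1c it was in 4 of the 6 genes, and 14% of all 32851 promoter windows of the same length held it. Lilr4b had a STAT-type match to TTCNNNGAA at -104 to -96, as did 7.02% of all windows. The match in Lilr4b reads TTCTCTGAA.

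The SMAD motif CAGAC matched in Klrb1c, Klrb1f and a second annotated window of Klrc2, beside 42.2% of all windows. PU.1 letters (GAGGAA, 23.3% of windows) matched only in Klrb1c among the 6 genes, and GATA letters (AGATAA, 9.99%) only in Klrb1f. None of the 6 genes matched the AP-1 motif TGANTCA (6.75% of windows), the T-box motif TCACAC (12.3%) or the ROR motif AGGTCA (14%). The AP-1 letters can overlap a STAT-type match. Aligned end to end, the windows of Klrc1 and Klrc2 were 46.0% identical, within the 40.7% to 47.6% found over all 15 pairs of these genes.

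All described Klr genes but Klrg1 lie in a cluster on chromosome 6, the natural killer gene complex, taken here from Klrb1a to Klra2. In the RefSeq gene order Klrd1 stands between Klre1 and Klrk1, followed by Klrc3, Klrc2 and Klrc1. Of 36 measured genes from Klrb1a to Klra2, 3 had arrays at least 2-fold apart, beside 3.7% of all genes, and they were not neighbours: Clec2i, Klrd1 and Klrc1. Of the 30 genes outside the described set, 1 was apart, near the share of all genes. Next to Klrd1, Klre1 differed by 0.06 log2 between Th17 and Th22, and Klrc3, between Klrk1 and Klrc2, was equal on all arrays. The Lilr genes on chromosome 10 adjoin each other. The 3 coding genes on either side of them spanned at most 0.07 log2 over the arrays, and 4 of these 6 were equal on all.

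**Figure D3:**
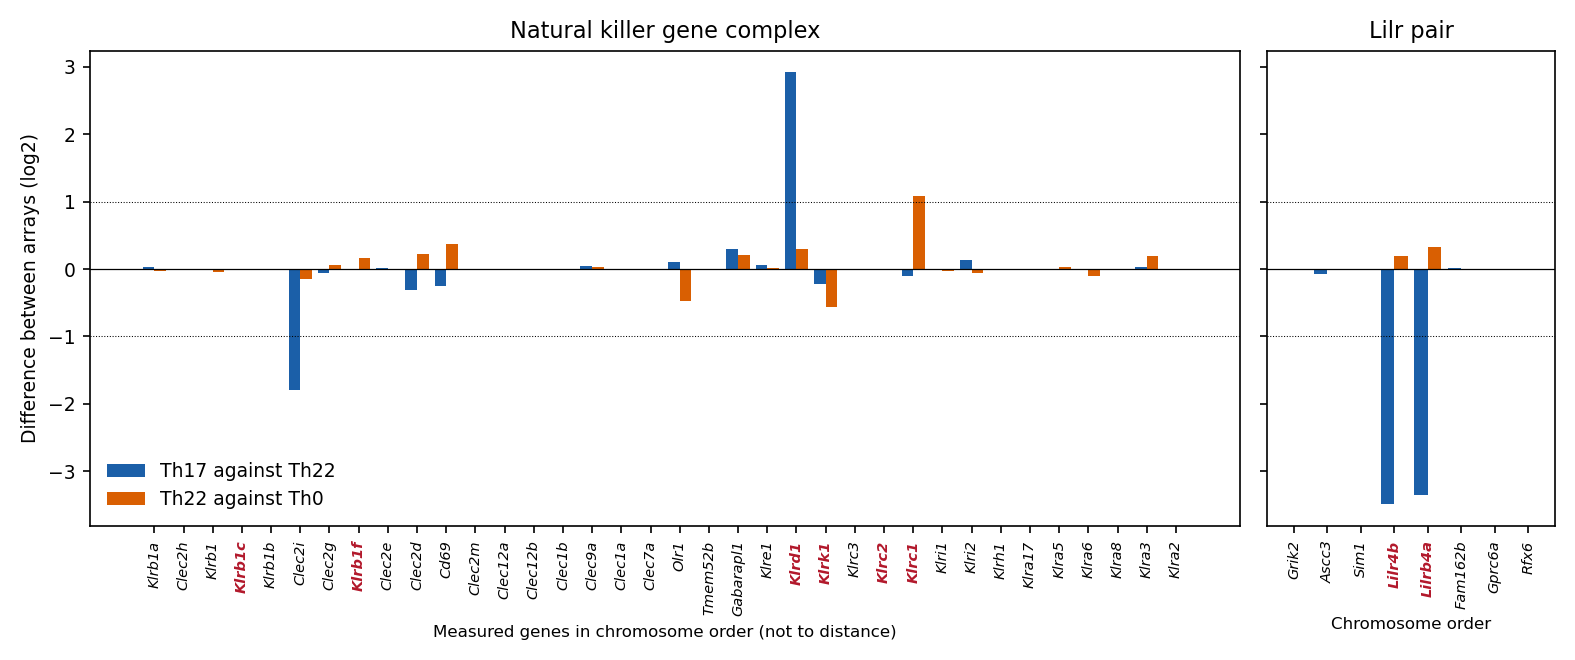
Difference in log2 between Th17 and Th22 (blue) and between Th22 and Th0 (orange) for measured coding genes in chromosome order, in the natural killer gene complex (left) and around the Lilr pair (right); the described genes are in bold red and dotted lines mark 2-fold. Klrd1 at 2.92 stands beside Klre1 at 0.06 and Klrk1 at -0.23, and Lilr4b and Lilrb4a stand at -3.49 and -3.35 with neighbours near 0.

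Genes with the most similar course over the arrays were found by Euclidean distance over the 3 values, after each gene was set to a mean of 0, among 734 other genes that were at least 2-fold apart. With 3 arrays such likeness is a description of few points. Nearest to Klrd1 were Procr, which encodes the endothelial protein C receptor (distance 0.16 log2), Cpd, which encodes a carboxypeptidase (0.21), Ankrd55 (0.25), the scavenger receptor gene Stab1 (0.26) and Myo3b (0.28), and 17 of the 734 lay within 0.5. Nearest to Klrc1 were Klhl6 (0.09), the inhibin subunit gene Inha (0.11), the profilin gene Pfn2 (0.13), the spermine oxidase gene Smox (0.13) and Rgcc (0.15), with 44 within 0.5.

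Lilrb4a and Lilr4b were 0.20 log2 from each other, and 0 of the 734 genes was nearer to either. How far the probe set of each detects the other gene was not tested, so their likeness may not rest on separate signals. After its relative, Lilrb4a was nearest to the innate recognition gene Pglyrp1 (0.23), Ms4a4b (0.27), Gimap7 (0.32), Tnip3 (0.36) and Itih5 (0.37). Lilr4b was nearest to the T cell growth factor gene Il2 (0.32), Ms4a4b (0.33), Tnip3 (0.33), Pglyrp1 (0.41) and Itih5 (0.43). Within 0.5 log2 lay 11 genes for Lilrb4a and 9 for Lilr4b.

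The adaptors that pair directly with these receptors were within 2-fold. Tyrobp, which serves the NKG2C dimer, differed by at most 0.05 log2, and Hcst, which serves NKG2D, and Fcer1g, which serves NK1.1, were equal on all 3 arrays. Among the phosphatases recruited by inhibition motifs, Ptpn6, which encodes SHP-1, was 0.26 log2 lower in Th17 than in Th22, and Ptpn11 was equal in these. Inpp5d, which encodes SHIP-1, was 0.57 log2 higher in Th17 than in Th22, while the related phosphatase gene Inppl1 was 0.64 log2 lower. Of 28 measured adaptors and signal transducers, 1 was higher and 1 lower by at least 2-fold between Th17 and Th22 (all genes 2.61% either way), 0 were apart in Th22 against Th0 (0.808%), and 1 was lower in Th17 than in Th0 (3.03% either way), with medians of 0. On all arrays 5 of the 28 were equal, beside 37.7% of all genes. The exchange factor gene Vav3 was 2.31-fold lower in Th17 than in Th22 and 4.45-fold lower than in Th0, and the kinase subunit gene Pik3r1 was 2.01-fold higher in Th17 than in Th22. After quantile normalization both of the differences from Th22 were 1.67-fold, under the threshold.

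Among ligands of these receptors, 0 of 14 measured genes were higher and 2 lower in Th17 than in Th22 (all genes 2.61% either way), with a median of -0.05 log2. The same 2 of the 14 were apart in Th17 against Th0 (all genes 3.03% either way). Clec2i, which encodes a ligand of the Klrb1f product, was 3.46-fold lower in Th17 than in Th22 and 3.83-fold lower than in Th0 (2.08-fold and 2.30-fold after quantile normalization). Itgb3, which encodes a chain of the αvβ3 integrin that binds gp49B, was 3.61-fold lower in Th17 than in Th22 (2.11-fold after quantile normalization) and 8.68-fold lower than in Th0. Between Th22 and Th0 it was lower in Th22, by 2.4-fold (3.12-fold after quantile normalization). It was the only one of the 14 apart there, beside 0.808% of all genes. The cadherin genes Cdh1 and Cdh4, ligands of KLRG1, were equal on all arrays, and Raet1d, a ligand gene of NKG2D, was within 0.22 log2. H2-T23, which encodes the class I-like ligand of the CD94 dimers, was measured by a probe set that also matches another gene, and this was 0.39 log2 lower in Th17 than in Th22. Other class I genes on the list also had shared probe sets only. That of H2-Q6 was 0.98 log2 lower in Th17 than in Th22 and 1.34 log2 lower than in Th0, past 2-fold, and those of H2-D1 and H2-K1 were within 0.35 log2.

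Of 22 other measured lectin-like receptors, Klrg2 and Clec2l lay outside the stretch of the natural killer gene complex from Klrb1a to Klra2. Among the 22, Clec2i, already given as a ligand, was the only one apart in any comparison, beside 3.7% of all genes. On all arrays 8 of them were equal, beside 37.7% of all genes. Both shares are near those of all genes. The 20 other measured Ig-like receptors included paired receptors of T cells. In Th17 against Th22, 1 was higher and 2 were lower (all genes 2.61% either way). In Th22 against Th0 these counts were 0 and 1 (0.808%), and in Th17 against Th0 they were 1 and 2 (3.03%). On all arrays 12 of the 20 were equal, beside 37.7% of all genes. Lair1, which encodes an inhibitory collagen receptor, was 3.45-fold higher in Th17 than in Th22 and 2.60-fold higher than in Th0, the last falling to 1.89-fold after quantile normalization. It was thus opposite in direction to Lilrb4a between Th17 and Th22. Cd226, an activating receptor gene, was 3.70-fold lower in Th17 than in Th22 and 5.02-fold lower than in Th0. The inhibitory receptor gene Tigit, whose product shares ligands with that of Cd226, was 3.16-fold and 3.52-fold lower. Quantile normalization gave 2.13-fold and 3.24-fold for Cd226 and 2.00-fold and 2.24-fold for Tigit. Cd96 stood 2.36-fold below Th0 in Th22 (5.97-fold after quantile normalization).

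Of 21 transcription factors known to act on such receptors in NK or T cells, 2 were higher and 4 lower in Th17 than in Th22 (all genes 2.61% either way), 0 and 3 in Th22 against Th0 (0.808%), and 3 and 4 in Th17 against Th0 (3.03%), with medians of 0. In Th17 against Th22, Tbx21, which encodes T-bet, was 6.30-fold lower (2.95-fold after quantile normalization), Gata3 6.27-fold lower (2.93-fold) and Id3 3.35-fold lower. Maf was 11.4-fold higher (7.01-fold). Runx1 was 2.40-fold higher and Stat4 2.04-fold lower, and both came under the threshold after quantile normalization, at 1.83-fold and 1.55-fold. Eomes, which encodes a T-box factor of NK and memory cells, was equal in Th17 and Th22 and 0.79 log2 lower in each than in Th0. Between Th17 and Th0, Smad3, which encodes a mediator of TGFβ signals, was 2.82-fold higher and Prdm1 2.18-fold lower in Th17. Irf8 stood 2.04-fold below Th0 in Th22 (5.06-fold after quantile normalization). Runx3 was 0.42 log2 lower in Th17 than in Th22, and Spi1 and Cebpa, factors of myeloid cells, were equal on all arrays. Whether any of these factors acts on the described genes in these cells was not tested.

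**Figure D4:**
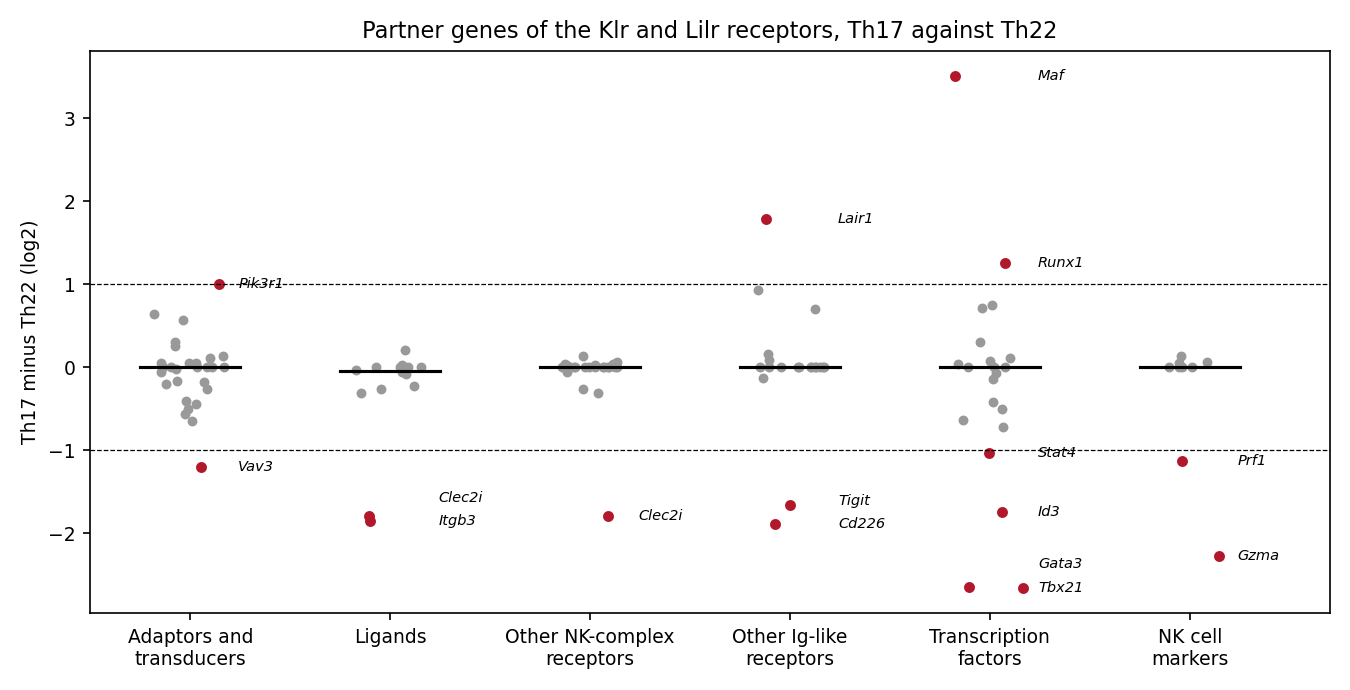
Difference between Th17 and Th22 in log2 for genes of 6 lists (1 point per gene, spread sideways for visibility); black bars are list medians, dashed lines mark 2-fold, and genes past it are red and named. Medians lie at 0, or at -0.05 for ligands, and the points past 2-fold include Maf at 3.51, Lair1 at 1.79 and Itgb3 at -1.85.

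Markers of other cells were set beside the differences in Klrd1 and the Lilr genes. Over all genes, 2.61% were at least 2-fold apart either way in Th17 against Th22 and 3.7% in any comparison. Equal on all arrays were 37.7% of all genes. The sums below add centred log2 values, so a few genes can set them, and they give no amount of a cell type. Of 9 NK cell markers 0 were higher and 2 lower in Th17 than in Th22, Gzma (4.85-fold, 2.52-fold after quantile normalization) and Prf1 (2.20-fold, 1.75-fold after it), and the summed values of the list were 1.46 log2 in Th0, 0.12 in Th22 and -3.05 in Th17. The NK cell receptor genes Ncr1 and Klra8 were equal on all arrays. Of 20 myeloid and dendritic cell markers 12 were equal on all arrays. Only Ms4a6c was lower in Th17 by at least 2-fold, 2.02-fold against Th22 and 1.53-fold after quantile normalization. The largest rise in Th17 against Th22 on this list was 0.44 log2, in Cx3cr1. The summed values were 0.70, 0.35 and -0.60 log2 in the same order of arrays. Of 11 mast cell and basophil markers 0 were apart in any comparison, and Fcer1a, Cpa3, Tpsb2 and Prss34 were equal on all, with sums of -0.45, -0.15 and 0.59 log2.

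Among 2 CD8 T cell markers Cd8b1 was 2.20-fold lower in Th17 than in Th22 (1.61-fold after quantile normalization) and Cd8a differed by 0.15 log2, with sums of 0.30, -0.15 and -1.14 log2. The 3 measured gamma-delta T cell markers were within 0.07 log2. Among 9 B cell markers Ebf1 alone was apart, 6.36-fold lower in Th17 than in Th22, and the sums of the list were -0.16, 1.61 and -1.05 log2. Of 11 CD4 T cell genes 10 lay within 2-fold between Th17 and Th22, and Trat1, which encodes a receptor-associated adaptor, was 7.62-fold lower in Th17 (3.46-fold after quantile normalization), with a list median of -0.31 log2 and sums of 0.20, 1.5 and -3.86 log2. Single genes made up most of several sums. In Th17, Gzma was at -2.28 log2, Cd8b1 at -1.14, Trat1 at -2.93 and Kit at 0.40. In Th22 Ebf1 was at 1.62, and in Th0 Kit was at -0.45. The part of other cells in the differences of Klrd1, Lilrb4a and Lilr4b was not tested beyond these values.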

How the data were processed

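RNA of Th0, Th22 and Th17 cells was measured on 1 single-colour Affymetrix array each, and arrays were grouped by the T-helper subset in the labels. The deposited table holds 28853 probe sets, which were taken as log2 values. The authors had subtracted from each probe set its median over the 3 arrays, as found from the values, since that median was exactly 0 for all 28853. How the authors summarised and normalized the arrays, the base of the logarithm and the direction are not stated in the labels or the table. Base 2 and higher value as higher expression were assumed, and with natural logs every fold would be larger.

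Probe sets were named from the platform annotation, with symbols updated by Entrez identifier through the RefSeq table of GRCm38.p6 (21698 of 21789 probe sets with 1 symbol matched). Those with several symbols (1621) or not listed (5443) were left out, and probe sets of the same gene were averaged, giving 19938 genes. Differences were counted at 2-fold, with no test. The genes and lists were chosen with earlier results of these data known. All 9 genes are named, as are list genes at least 2-fold apart in some comparison, selected partners within 2-fold, and for each described gene that was apart the 5 nearest in course. The partners within 2-fold were chosen after their values were seen. Alternatives were quantile normalization of the centred values, other probe, threshold and log base choices, and arrays shifted to a mean of 0. The calculation was tested on simulated data. Protein comparisons and that of the Lilrb4a promoter were planned and not made, since no such sequences were used here. Python 3.11.15, NumPy 2.4.6, pandas 2.3.3 and Biopython 1.88 were used.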

Additional observations from a re-analysis of the deposited data

How the results depend on the processing

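The same 3 genes, Klrd1, Lilrb4a and Lilr4b, were at least 2-fold apart in Th17 against Th22 and in Th17 against Th0, and Klrc1 in Th22 against Th0, under quantile normalization, either choice of probe set, probe sets with several symbols also used, and arrays shifted to a mean of 0. Each gene has 1 probe set, and no probe set with several symbols includes any of them, so these choices could not move their values. The shift to a mean of 0 moved 0 of 27 differences by more than the SD between probe sets. For Th22 against Th0 the count was 0 at a threshold of 3-fold, beside 59 of all 19938 genes. For Th17 against Th0 it was 5 at 1.5-fold, beside 1260 of all genes. It was also 5 with natural logs, where Klrc1 and Klrk1 joined, beside 1021 of all genes. Of 27 differences of the 9 genes, 7 moved by more than the SD between probe sets under quantile normalization and 0 reversed. The counts over all genes under quantile normalization were 399 against 520 for Th17 against Th22, 308 against 161 for Th22 against Th0 and 420 against 604 for Th17 against Th0, as that procedure changes the spread of every array. Of 43 differences past 2-fold in list genes it kept 30 and turned 0. No paired analysis was possible because each condition has 1 array. Signal over background is unknown from centred values.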
